A study of Homo sapiens with 10 samples.

Results

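The replication-dependent histone genes supply the core histones H2A, H2B, H3 and H4 and the linker histone H1 that package newly made DNA. They lie in gene clusters, are transcribed mainly in S phase, and give short mRNAs that end in a stem-loop instead of a poly(A) tail. The stem-loop is bound by SLBP, and the mRNAs are degraded when DNA synthesis stops, so that their level usually follows the fraction of cells that are replicating. The array protocol labels whole transcripts, and probe sets for these genes were present. Many of the genes are near-identical in their coding sequence, H4 genes above all, so a probe set may also bind RNA of a close copy and the value of any single gene is uncertain to that extent.

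The members were the probe sets whose platform gene symbol was H1-1 to H1-6 or began with H2AC, H2BC, H3C or H4C and a digit. This gave 61 genes among 21448 tested probe sets, with 1 probe set each. The rule would have kept the brightest of several probe sets for a symbol, so members were chosen by symbol and by brightness, but no symbol had more than 1 and brightness decided none. They comprised 6 H1, 14 H2A, 17 H2B, 9 H3 and 15 H4 genes. In RefSeq of GRCh38.p14, 49 lie on chromosome 6, 11 on chromosome 1 and 1, H4C16, on chromosome 12. A further 9 protein-coding RefSeq genes that fit the rule were not analysed here.

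The study hybridised RNA of 2 human neuroblastoma cell lines, SK-N-FI and SK-N-AS, to 10 whole-transcript arrays. Treated cells received 30 µM of BG-P1600-TAT, a conjugate that the series title directs at the norepinephrine transporter and thyrointegrin αvβ3, for 48 h, and control cells received PBS at pH 7.4. The groups were SK-N-FI control (arrays 1 and 2), SK-N-FI treated (1 and 2), SK-N-AS control (25, 26 and 27) and SK-N-AS treated (28, 29 and 30). For SK-N-AS the titles shorten the name to BG-P-TAT, read here as the same conjugate. Separate cultures are not stated for SK-N-AS, and its p-values measure a spread between arrays that may be technical. Each line is a single established cell line.

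Values are log2 signals. The median over all probe sets was 7.02 to 7.07 on SK-N-FI arrays and 6.02 to 6.09 on SK-N-AS arrays. Background was set on each array at the 95th percentile of its 612 negative control probe sets, and between 32.9% and 44.3% of all tested probe sets lay above it. Of 9 noradrenergic markers measured, 8 were above background on every SK-N-FI array and 4 on every SK-N-AS array. Of 10 mesenchymal markers, the counts were 3 and 6. Among 7 blood and endothelial markers, none was above background on any SK-N-FI array, and in SK-N-AS only PTPRC was, on 5 of 6 arrays (6.01, 8.65 and 7.83 in controls, 6.92, 7.68 and 9.09 in treated cells). The mean log2 signal of the 7 was 4.73 to 5.30 on SK-N-FI arrays, against 5.06 to 5.42 for SK-N-AS.

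The stretches just upstream of the transcription starts are shown for genes on which the later comparisons turn. H2BC14 and H2BC12 had some of the most negative treatment changes in SK-N-AS. H3C8 and H2AC6 had higher signals in SK-N-AS, H1-1 had a higher signal in SK-N-FI, and H4C5 held none of the motifs searched. Each is the 150 bases before the start annotated in RefSeq (GRCh38.p14), 5′ to 3′ on the gene's strand. Capitals mark 3 motifs, each searched on both strands. The first is ATTTGCAT, the octamer known from H2B promoters. The second is TATAAA, a form of the TATA box found near many starts. The third is CCAAT, bound by the factor NF-Y in many promoters. No marked motif overlaps another in these windows.
H2BC14 (chr6:27814872-27815021, plus strand): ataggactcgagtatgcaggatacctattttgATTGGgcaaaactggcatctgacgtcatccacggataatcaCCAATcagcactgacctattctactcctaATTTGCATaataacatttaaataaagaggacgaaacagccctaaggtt
H2BC12 (chr6:27146859-27147008, minus strand): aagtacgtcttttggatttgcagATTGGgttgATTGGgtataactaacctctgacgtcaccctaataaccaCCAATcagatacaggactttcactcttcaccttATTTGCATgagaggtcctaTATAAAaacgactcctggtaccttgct
H4C5 (chr6:26204460-26204609, plus strand): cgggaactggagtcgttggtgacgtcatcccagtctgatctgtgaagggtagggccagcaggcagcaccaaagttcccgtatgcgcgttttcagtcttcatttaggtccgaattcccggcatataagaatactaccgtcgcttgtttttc
H3C8 (chr6:26271414-26271563, minus strand): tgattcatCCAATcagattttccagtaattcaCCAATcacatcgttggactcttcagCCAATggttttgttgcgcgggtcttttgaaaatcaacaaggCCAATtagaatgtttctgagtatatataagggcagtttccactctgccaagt
H2AC6 (chr6:26124022-26124171, plus strand): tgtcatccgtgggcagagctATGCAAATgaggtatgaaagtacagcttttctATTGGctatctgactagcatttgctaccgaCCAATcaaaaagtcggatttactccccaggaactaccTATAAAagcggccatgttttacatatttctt
H1-1 (chr6:26017788-26017937, minus strand): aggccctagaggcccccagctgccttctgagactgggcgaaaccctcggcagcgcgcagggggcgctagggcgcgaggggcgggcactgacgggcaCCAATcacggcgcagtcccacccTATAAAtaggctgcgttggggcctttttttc

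A promoter was given for 57 of the 61 genes (not for H2AC12, H3C11, H4C1 and H4C3). The octamer was present in the 150-base window of 14 of 17 H2B genes and of 3 of 13 H2A genes (H2AC1, H2AC4 and H2AC6), and in 0 of 6 H1, 8 H3 and 13 H4 genes. Among 27305 promoters of the same length it occurred in 0.985%. TATAAA was present in 32 of 57 members (56.1%), against 7.05% of all promoters. CCAAT was present in 47 of 57 (82.5%), against 24.4%. All of the H1, H2A, H2B and H3 promoters given held CCAAT, whereas 3 of 13 H4 promoters did (H4C6, H4C9 and H4C13). These are matches of letters in a window and say nothing of binding. Adjacent H2A and H2B genes that face away from each other share upstream sequence, so their windows overlap and are not independent.

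Most of the histone genes carried a signal. In SK-N-FI, 45 of the 61 were above background on every array and 14 on none. In SK-N-AS, 36 were above background on every array and 19 on none. Both lines together had 35 genes above background on all 10 arrays, among 5834 such probe sets in all. Another 10 genes were above background on every array of SK-N-FI but not on every array of SK-N-AS. Only H3C8 was in the opposite position. Between 45 and 47 genes were above background on each SK-N-FI array, and between 36 and 41 on each SK-N-AS array. By class, 5 of 6 H1, 12 of 14 H2A, 11 of 17 H2B, 6 of 9 H3 and 11 of 15 H4 genes were above background on every SK-N-FI array. The corresponding numbers in SK-N-AS were 3, 10, 9, 5 and 9.

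The mean signal over all 61 genes was compared by line and treatment. In SK-N-FI it was 10.47 and 10.62 on control arrays 1 and 2 and 10.74 and 10.41 on treated arrays 1 and 2. The treated arrays thus lay on both sides of the controls. In SK-N-AS it was 9.42, 9.08 and 8.75 on control arrays 25, 26 and 27 and 9.22, 8.75 and 8.69 on treated arrays 28, 29 and 30. The arms overlapped there as well, since treated array 28 lay above control arrays 26 and 27. The group means were 10.55 ± 0.11 and 10.58 ± 0.23 for SK-N-FI control and treated (SD, n = 2). They were 9.08 ± 0.33 and 8.89 ± 0.29 for SK-N-AS control and treated (SD, n = 3). In both lines the difference between the arms was smaller than the spread within them.

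The histone genes moved together from array to array within an arm. All 36 genes above background in SK-N-AS had a higher signal on control array 25 than on control array 27, and all 36 had a higher signal on treated array 28 than on treated array 30. Among all 6621 probe sets above background on every SK-N-AS array, 39.6% had both orders. Control array 25 was the highest of the 6 arrays for 29 of the 36 genes, and treated array 30 the lowest for 16. Measured as the deviation of each gene from its mean over the line, the 36 genes averaged 0.47, 0.16 and -0.26 on control arrays 25, 26 and 27. They averaged 0.24, -0.28 and -0.33 on treated arrays 28, 29 and 30. Over pairs of these genes the median correlation of within-arm deviations was 0.85 (630 pairs, 99.7% positive), against 0.05 over pairs of all 6621 probe sets. The pairs share the same 6 arrays, so this describes these arrays and has no independent replicates.

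**Figure D1:**
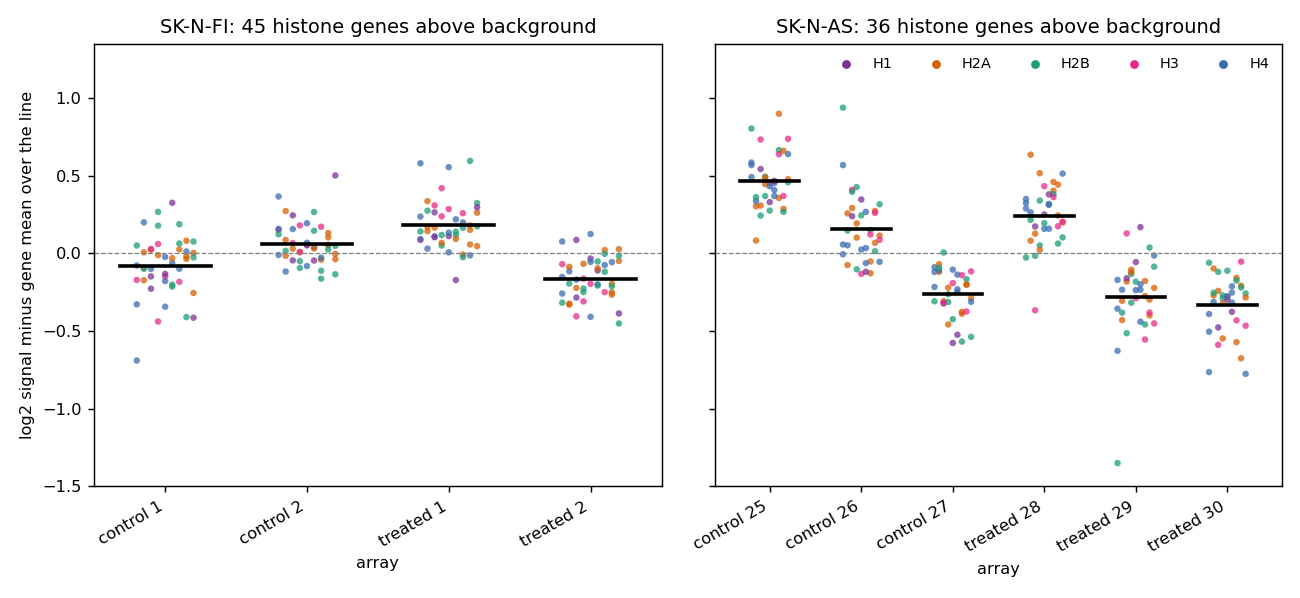
Deviation of each histone gene (dots, coloured by class) from its mean over the line's arrays, in log2 units, for the genes above background on every array of that line, with the mean over genes as a black bar. In SK-N-AS the bars range from 0.47 on control array 25 to -0.33 on treated array 30, and treated array 28 (0.24) lies above control arrays 26 (0.16) and 27 (-0.26).

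Averaged over all members of a class, the controls had the order 25, 26, 27 from high to low in every class. H2A genes averaged 0.42, 0.09 and -0.23 on control arrays 25, 26 and 27 and 0.26, -0.25 and -0.30 on treated arrays 28, 29 and 30. H4 genes averaged 0.40, 0.10 and -0.18 and then 0.29, -0.23 and -0.37. H1 genes, which encode the linker histone, averaged 0.41, 0.09 and -0.37 on controls but -0.02, 0.17 and -0.28 on treated arrays, so that treated array 29 stood highest of its arm. Of these 6 genes, 3 were above background on every SK-N-AS array and 3 on none, so the average includes signals below background. H1-4 and H1-5, both above background, had their highest treated signal on array 28. In the other classes treated array 28 stood highest of its arm on average, and in H2B the lowest array was treated array 29 (-0.36) and not 30 (-0.17). In SK-N-FI the spread was smaller. Its 45 genes averaged -0.08 and 0.06 on control arrays 1 and 2 and 0.18 and -0.16 on treated arrays 1 and 2. There 32 of 45 genes were higher on control array 2 than 1 and on treated array 1 than 2, against 34.0% of 8171 probe sets. Here too the orders counted are those of the histone means. The median pair correlation was 0.77 (990 pairs, 4 arrays), against 0.04 over pairs of all 8171 probe sets. With 2 arrays per arm, the correlation of any single pair is imprecise.

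Several other measures also varied across the SK-N-AS arrays, though none ranked all the arrays as the histone genes did. The first principal component of all probe sets (50.04% of the variance) scored -57.5, 26.9 and 4.33 on control arrays 25, 26 and 27 and -31.0, 6.71 and 50.6 on treated arrays 28, 29 and 30. The share of all tested probe sets above background was 32.9%, 36.5% and 39.3% on the controls and 36.9%, 36.2% and 39.7% on the treated arrays, so control array 25, highest for histones, was lowest in that share. The negative control threshold was 7.23, 7.03 and 6.75 and then 6.92, 7.01 and 6.76. The part of these in the array order of the histone genes was not tested. A larger share of cells in S phase and more histone RNA per cell cannot be told apart in bulk RNA.

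Other genes of DNA replication varied less across these arrays. The 13 S phase genes above background on every SK-N-AS array (of 20, among them PCNA, the MCM helicase genes and ribonucleotide reductase) averaged 0.08, -0.19 and 0.10 on control arrays 25, 26 and 27. On treated arrays 28, 29 and 30 they averaged 0.15, 0.03 and -0.18. Both orders described for the histone genes held for 8 of these 13 (61.5%). The median pair correlation was 0.27 among the 13 S phase genes and 0.01 among the 11 mitosis genes that were above background on every SK-N-AS array. It was -0.06 among 13 factors that transcribe or process histone mRNA and 0.09 among 15 histone chaperones. Replication-independent histone variants, made mostly from polyadenylated mRNAs, had 0.27 among 7 genes in SK-N-AS and 0.88 among 7 in SK-N-FI.

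The first comparison asked whether the conjugate changed histone transcripts in SK-N-FI. No histone gene was called. Of the 61 genes, 29 had a lower and 32 a higher mean in treated cells, and the median log2 change was 0.01, against -0.01 over all probe sets. The changes ranged from -0.28 to 0.47. By class the medians were 0.00 for H1 and H2A, 0.01 for H3, -0.02 for H2B and 0.09 for H4. Limma called 0 of 61 at an adjusted p under 0.05, where 0% of all 21448 probe sets were called, and 0 of the 61 had an unadjusted p under 0.05. The 95% interval of the change lay within 2-fold in both directions for 56 of 61 genes.

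Among genes above background on every SK-N-FI array, the most negative change was that of H1-1, a linker histone. Its signals were 8.98 and 8.61 on control arrays and 8.48 and 8.55 on treated arrays, so the treated values lay below both controls. The log2 change was -0.28 (95% interval -0.82 to 0.25, limma adjusted p = 1, n = 2 per group). H2AC18, H2BC9, H2BC18 and H2AC4 followed, with changes between -0.18 and -0.14. The most positive change was that of H2BC13, at 9.06 and 9.50 in controls and 10.07 and 9.26 in treated cells (0.38, -0.35 to 1.12). The arms overlapped, and the change was 0.79 without treated array 2 and -0.02 without treated array 1. H4C12 (0.32), H2AC8 (0.29), H4C11 (0.26) and H3C11 (0.26) came next.

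For H2AC8 the treated arrays (15.44 and 15.20) lay above the controls (14.92 and 15.14), as did those of H4C11 (15.44 and 15.43 against 15.12 and 15.22). In all, 6 histone genes had non-overlapping arms with treated cells higher and 3 with treated cells lower. Over all probe sets, 13.8% had treated arrays above and 14% below the controls. Both counts are smaller shares of 61 than these. The direction of the median rested on single arrays, as it was 0.19 without treated array 2 and -0.13 without treated array 1. Leaving out control array 2 gave 0.11, and leaving out control array 1 gave -0.05.

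In SK-N-AS most histone genes had lower means in treated cells, and again no gene was called. Of the 61 genes, 50 had a lower and 11 a higher mean, and the median log2 change was -0.18, against 0.00 over all probe sets, of which 10901 of 21448 were lower. Lower means were found in 4 of 6 H1, 11 of 14 H2A, 15 of 17 H2B, 8 of 9 H3 and 12 of 15 H4 genes. The class medians were -0.10, -0.20, -0.15, -0.17 and -0.19. On chromosome 1, 10 of 11 genes had lower means (median -0.20), and on chromosome 6, 40 of 49 (median -0.18). Limma called 0 of 61, where 0% of all probe sets were called, and 0 of the 61 had an unadjusted p under 0.05. The interval lay within 2-fold in both directions for 47 of 61 genes.

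The size of this shift depended on which arrays were present. Without control array 25 the median change was -0.02, with 32 of 61 genes lower, and without treated array 30 it was -0.11. Without treated array 29 it was -0.14. Leaving out control array 27 gave -0.38 and leaving out treated array 28 gave -0.37, with 56 of 61 genes lower in each. With both array 25 and array 28 left out, it was -0.17, with 49 lower. The genes share these arrays and moved together on them, so 50 lower genes are not 50 separate observations.

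The genes with the most negative changes were core histones. H2BC14 had signals of 12.75, 12.88 and 11.63 on control arrays 25, 26 and 27 and of 11.92, 10.59 and 11.88 on treated arrays 28, 29 and 30. The arms overlapped, since control array 27 lay below treated arrays 28 and 30, and treated array 29 was the lowest. The group means were 12.42 ± 0.68 and 11.46 ± 0.76 (SD, n = 3). The log2 change was -0.96 (95% interval -1.94 to 0.03, limma adjusted p = 1), and it ranged from -1.35 to -0.52 when each array was left out in turn.

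H4C3 went from 16.26, 16.25 and 15.59 in controls to 16.00, 15.05 and 14.91 in treated cells, where treated array 28 again lay within the control range. Its change was -0.71 (-1.46 to 0.03). H3C2 had 8.81, 8.48 and 7.75 in controls and 7.71, 8.20 and 7.48 in treated cells, a change of -0.55 (-1.26 to 0.16). H3C8 had 9.64, 8.99 and 8.78 and then 9.10, 8.45 and 8.43, a change of -0.47 (-1.14 to 0.19). In each of these the arms overlapped, and none passed the test.

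H2BC12 was the only histone gene whose SK-N-AS arms did not overlap. Its signals were 15.37, 15.53 and 15.14 on control arrays and 15.11, 14.62 and 15.01 on treated arrays. The lowest control and the highest treated value were 15.14 and 15.11, so the gap was narrow. The change was -0.43 (-0.94 to 0.07, limma adjusted p = 1, n = 3 per group). It stayed between -0.54 and -0.28 when each array was left out. Over all probe sets, 4.02% had treated arrays below and 3.29% above the controls without overlap. Of the 61 histone genes, 1 had treated arrays below and 0 above.

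Of the 36 genes above background on every SK-N-AS array, 3 had a higher mean in treated cells. H1-5 was at 13.21, 12.62 and 12.22 in controls and 13.12, 12.91 and 12.36 in treated cells (0.12, -0.58 to 0.81). H2AC21 had a change of 0.05 and H2AC6 of 0.04. For all 3 the arms overlapped broadly. Leaving out each array in turn kept the sign of the change in 20 of these 36 genes, all lower in treated cells. The share of all probe sets that kept their sign is not given. The genes moved together on these arrays, so the 20 are not separate observations.

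**Figure D2:**
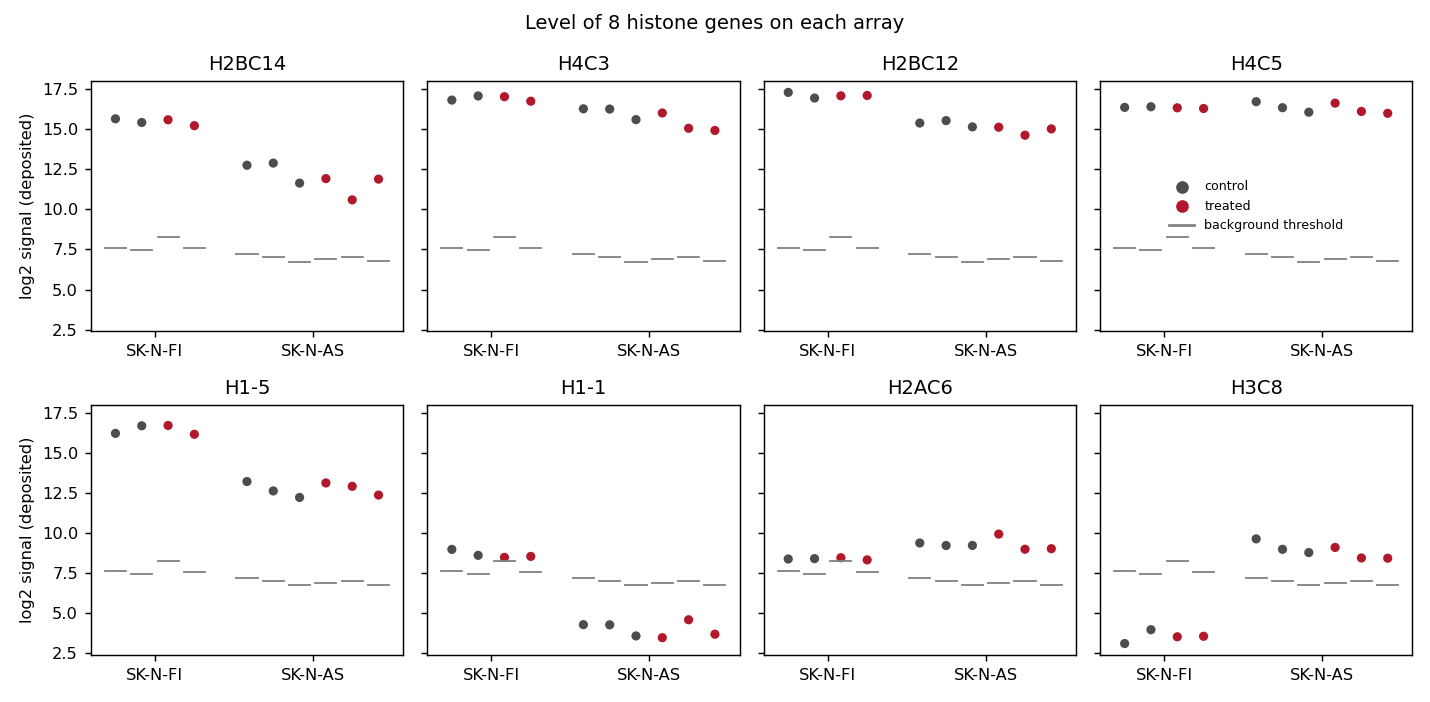
Deposited log2 signal of 8 histone genes on each of the 10 arrays (grey dots control, red dots treated, arrays in numerical order within each arm), with the background threshold of each array as a grey line. H3C8 lies under the threshold on the 4 SK-N-FI arrays and above it on the 6 SK-N-AS arrays, H1-1 shows the opposite, and control and treated dots overlap in SK-N-AS for each gene except H2BC12.

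**Figure D3:**
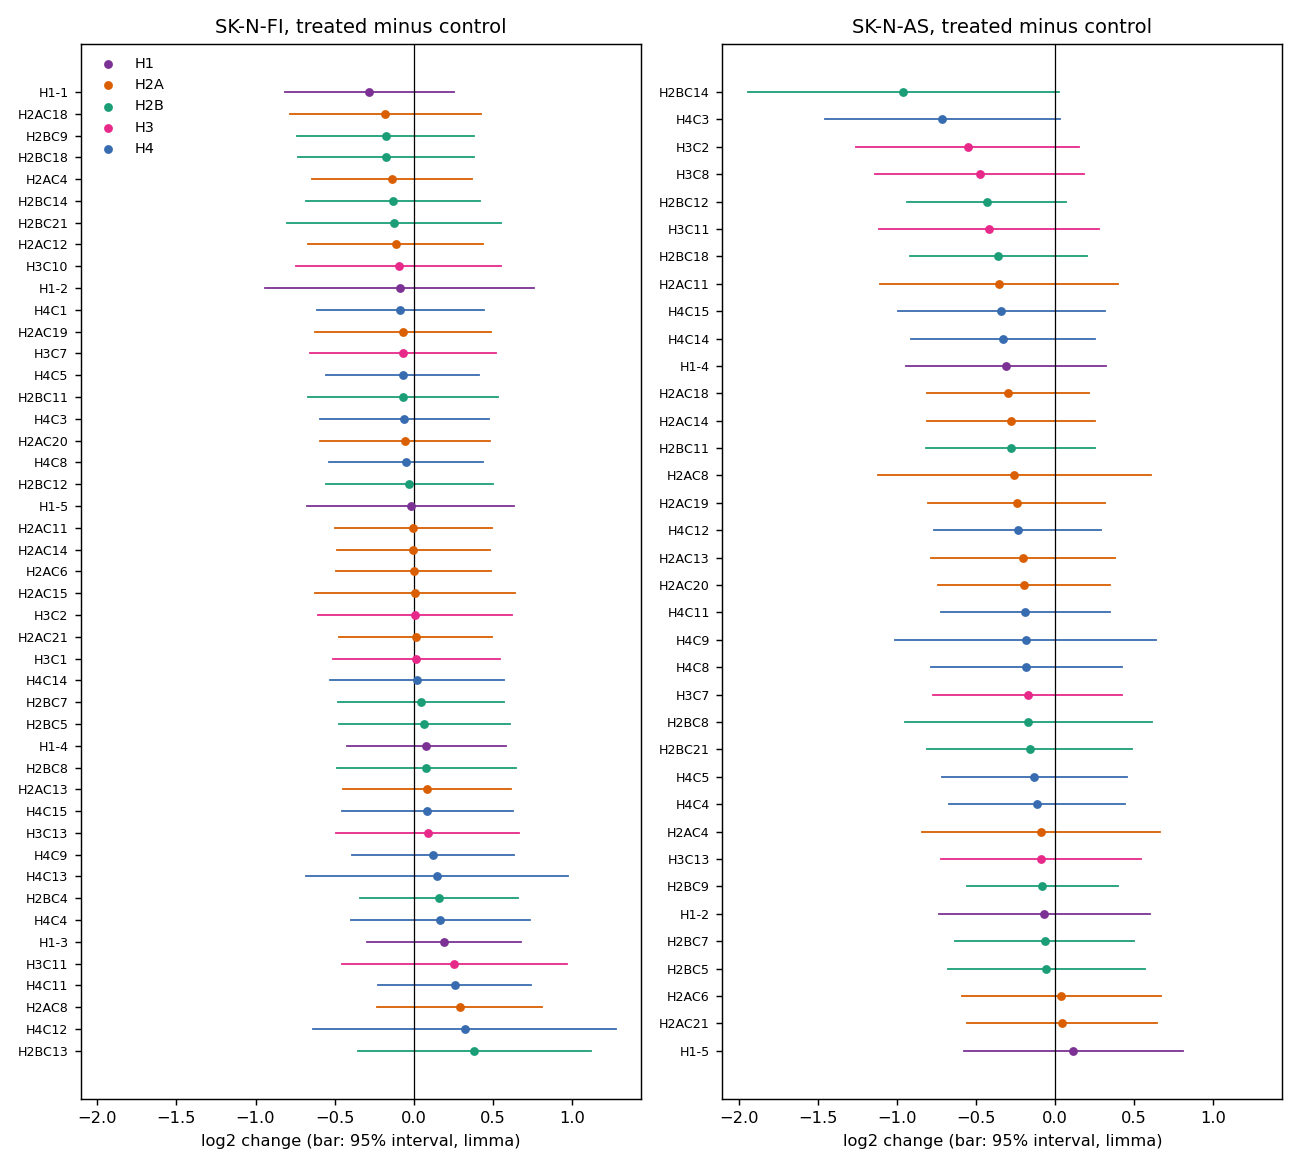
Log2 change, treated minus control, with its 95% interval from limma, for the histone genes above background on every array of the line (45 in SK-N-FI, 36 in SK-N-AS), ordered by change and coloured by class. All intervals include 0, and 33 of the 36 SK-N-AS estimates lie below 0 against 22 of 45 in SK-N-FI. Among all probe sets above background on every array of the line, 3615 of 6621 lie below 0 in SK-N-AS and 4175 of 8171 in SK-N-FI. The histone genes share arrays and moved together on them, so they are not separate observations.

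The difference of the treatment effects between the lines was tested directly. The median of the SK-N-AS effect minus the SK-N-FI effect was -0.18 over the 61 genes, with 47 below 0, against 0.00 over all probe sets. Limma called 0 of 61 for this difference, where 0% of all probe sets were called, and 1 of 61 had an unadjusted p under 0.05. That gene, H2BC3, was below background on all 10 arrays and was named after its value was seen. The median difference was -0.04 without SK-N-AS control array 25 or without SK-N-FI treated array 1, and -0.39 without SK-N-FI treated array 2. It was -0.38 without SK-N-AS control array 27 and -0.37 without treated array 28. Without SK-N-FI control array 1 or 2 it was -0.10 and -0.30, and without SK-N-AS treated array 29 it was -0.10.

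The related gene lists gave no called gene in either line. Of 25 factors that transcribe histone genes or process and degrade their mRNAs, 22 were measured, and 12 had lower and 10 higher means in treated SK-N-AS cells (median -0.01). SLBP, which binds the stem-loop of histone mRNA, was at 9.06, 8.48 and 9.05 in controls and 8.65, 8.94 and 8.27 in treated cells (change -0.25, -0.83 to 0.34). CPSF2, a subunit of the cleavage complex, had a change of 0.50 (-0.66 to 1.66), and CSTF2 of -0.20. NPAT, the cyclin E-CDK2 substrate that activates histone transcription, was below background on every SK-N-AS array. In SK-N-FI the list's median was 0.04.

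The histone variants listed as replication-independent had 8 of 12 measured members lower in treated SK-N-AS cells (median -0.15). H2AX, the variant phosphorylated at DNA breaks, was at 9.14, 8.24 and 8.06 and then 8.07, 8.14 and 7.63 (change -0.53, -1.23 to 0.16). Control array 25 stood apart from the other 5, and the arms overlapped. MACROH2A2 and MACROH2A1 had changes of -0.21 and -0.17. Histone chaperones, which escort new histones to DNA, had 9 of 20 lower (median 0.09), with NAP1L1 at 0.49 (-0.09 to 1.08), MMS22L at 0.39 and DNAJC9 at -0.35.

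S phase genes had 10 of 20 members lower in treated SK-N-AS cells (median 0.01). RRM2 had a change of -0.29, RRM1, the other ribonucleotide reductase subunit, of 0.28 and MCM5, a helicase subunit, of 0.22. Mitosis genes had 9 of 20 lower (median 0.02), among them AURKA at -0.57 (-1.08 to -0.05) and CCNB1 at -0.38, while BUB1 had 0.29. For AURKA the treated arrays (9.68, 9.03 and 9.44) lay below the controls (9.97, 9.82 and 10.06), and for BUB1 they lay above. Both had a limma adjusted p of 1. In SK-N-FI the medians were -0.04 for variants, -0.04 for chaperones, -0.07 for S phase and -0.01 for mitosis genes. Among the markers of cell state, the SK-N-AS medians were -0.06 for noradrenergic genes (CHGA -0.36, ISL1 0.13, GATA3 -0.10) and 0.03 for mesenchymal genes (FOSL1 -0.63, FN1 -0.53, CD44 0.16). The blood and endothelial markers had a median of -0.06.

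The lines were then compared with each other, first over the control arrays. Histone genes differed between the lines in both directions, with more of them higher in SK-N-FI. Because the deposited values of the lines had different medians, this comparison used values quantile-normalized over all 10 arrays, which moved the median difference of all probe sets from -0.61 to 0.04 (log2, SK-N-AS minus SK-N-FI). Limma called 28 of 61 histone genes higher in SK-N-FI, where 22.5% of all probe sets were called, and 6 of 61 higher in SK-N-AS, where 24.1% were. The median log2 difference was -0.48, against 0.04 over all probe sets. On the deposited scale the counts were 46 for SK-N-FI, where 47.8% of all probe sets were called, and 5 for SK-N-AS, where 11.5% were. Centred on array medians they were 32 (27.8% of all) and 9 (34.9% of all). The median differences of all probe sets on these scales were -0.61 and 0.23. Line and array run, if they differ, cannot be told apart.

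The treated arrays, other arrays of the same lines, were compared likewise. They were normalized and fitted together with the control arrays, so the 2 comparisons are not independent. There 31 of 61 were called higher in SK-N-FI (21.9% of all probe sets) and 6 of 61 higher in SK-N-AS (23.5%), with a median difference of -0.95. On the deposited scale 47 (47.8% of all) and 5 (11.2%) were called, and centred on array medians 35 (27.5%) and 9 (34.1%). All 28 and all 6 genes called in the control arrays were called in the same direction in the treated arrays. Over all probe sets this held for 3993 of the 4827 called for SK-N-FI and 4344 of the 5172 called for SK-N-AS. Under all 3 scalings (quantile, deposited and centred on array medians) and in both arms, 25 genes stayed called for SK-N-FI and 5 for SK-N-AS. Of these, 23 and 2 were above background on every array of at least 1 line. The share of all probe sets under this joint criterion is not given, so the counts have no baseline.

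The classes differed in how many genes were called. Higher in SK-N-FI over the control arrays were 4 of 6 H1, 6 of 14 H2A, 11 of 17 H2B, 4 of 9 H3 and 3 of 15 H4 genes. Higher in SK-N-AS were 1 H1, 1 H2A, 2 H2B, 2 H3 and 0 H4 genes. Over all probe sets, 22.5% were called higher in SK-N-FI and 24.1% higher in SK-N-AS. The H1 genes called for SK-N-FI include H1-1 and H1-3, which were not above background on any SK-N-AS array. The median differences were -1.60, -0.34, -1.28, -0.76 and -0.22 for H1, H2A, H2B, H3 and H4. On chromosome 6, 24 of 49 genes were higher in SK-N-FI (median -0.76), and on chromosome 1, 4 of 11 (median -0.15). These differences between classes and chromosomes were not tested.

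H3C8, which encodes histone H3, had the largest difference in favour of SK-N-AS. Its deposited signal was 3.12 and 3.98 on SK-N-FI control arrays and 9.64, 8.99 and 8.78 on SK-N-AS control arrays. It was 3.54 and 3.57 against 9.10, 8.45 and 8.43 on treated arrays. It was not above background on any SK-N-FI array and was so on every SK-N-AS array, with no overlap between the lines. Against the background level SK-N-AS was at least 8.09-fold higher in control and at least 4.59-fold higher in treated arrays after quantile normalization. The fitted line differences had limma adjusted p = 8.55e-08 and 1.74e-07, which do not test these bounds. On the deposited scale the bounds were 3.06-fold and 1.67-fold. Each bound sets the bright line's mean against the higher of the gene's own signal and the lowest signal above background on each array of the dim line.

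H2AC6 and H2BC5, an H2A and an H2B gene of chromosome 6, were also called higher in SK-N-AS and were above background on all 10 arrays. H2AC6 had 8.39 and 8.40 on SK-N-FI control arrays and 9.38, 9.22 and 9.23 on SK-N-AS control arrays. The log2 difference was 2.45 after quantile normalization (95% interval 1.82 to 3.09, limma adjusted p = 3.07e-05) and 0.88 on the deposited scale. H2BC5 had 9.91 and 10.27 against 10.70, 10.10 and 9.89, so that its deposited values overlapped. Its difference of 1.80 after quantile normalization (adjusted p = 0.000361 by limma) was 0.14 and not called on the deposited scale (adjusted p = 0.696). The other genes called higher in SK-N-AS were H2BC10, above background on 2 of 6 SK-N-AS arrays, and H1-6 and H3C3, above background on none. H3C13 (0.72) and H4C12 (0.35) had the next highest differences among genes above background and were not called. On the deposited scale their direction turned (-0.99 and -1.36), and both were called higher in SK-N-FI.

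Among genes above background on all 10 arrays, H1-5 had the largest difference in favour of SK-N-FI. This linker histone gene had 16.21 and 16.68 on SK-N-FI control arrays and 13.21, 12.62 and 12.22 on SK-N-AS control arrays. The difference was -3.72 after quantile normalization (-4.48 to -2.97, limma adjusted p = 4.04e-06), a 13.2-fold lower signal in SK-N-AS, and it was -3.76 on the deposited scale and -2.92 when centred on array medians. In treated arrays it was -3.54. H2BC14 (-2.57, -3.48 to -1.66), H2BC11 (-2.44) and H2BC21 (-2.42) followed. Their SK-N-AS values lay below all SK-N-FI values, for example 7.86, 7.71 and 6.86 against 11.54 and 11.52 for H2BC21.

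H1-1 was above background on every SK-N-FI array and on no SK-N-AS array. Its control signals were 8.98 and 8.61 for SK-N-FI, against 4.29, 4.28 and 3.59 for SK-N-AS. Since the SK-N-AS value is only a bound, the SK-N-FI signal exceeded it by at least 1.19-fold after quantile normalization and at least 3.46-fold on the deposited scale. H2BC13, likewise not above background on any SK-N-AS array, was at least 1.61-fold higher after quantile normalization and at least 4.84-fold higher on the deposited scale. Their fitted line differences after quantile normalization had limma adjusted p = 3.15e-06 for H1-1 and 0.0282 for H2BC13. These p-values do not test the bounds. H1-3, H2AC12, H2BC4 and H4C13 showed the same pattern of detection. In the control arrays their SK-N-FI signals did not exceed the SK-N-AS background level after quantile normalization. They exceeded it on the deposited scale by at least 2.42-fold, 2.31-fold, 2.09-fold and 2.26-fold in that order.

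Among the genes with the highest control signals, H4C5, H2AC14, H4C3, H1-4 and H2BC12 were compared as well. H4C5 had 16.35 and 16.39 in SK-N-FI controls and 16.70, 16.33 and 16.05 in SK-N-AS controls. Its difference was -0.48 after quantile normalization (-0.99 to 0.02, adjusted p = 0.104 by limma) and -0.01 on the deposited scale. Centred on array medians it was 0.84 and called higher in SK-N-AS (adjusted p = 0.017 by limma), so its direction and call depend on the scaling. H2AC14 (-1.93; 17.25 and 17.24 against 16.43, 16.18 and 15.76), H4C3 (-1.53) and H1-4 (-1.07) were called higher in SK-N-FI. Centred on array medians these 3 were no longer called (-0.28, -0.06 and -0.21). H2BC12 (-2.33) was called under each scaling. Signals of different genes are not compared, since probe sets differ in brightness.

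**Figure D4:**
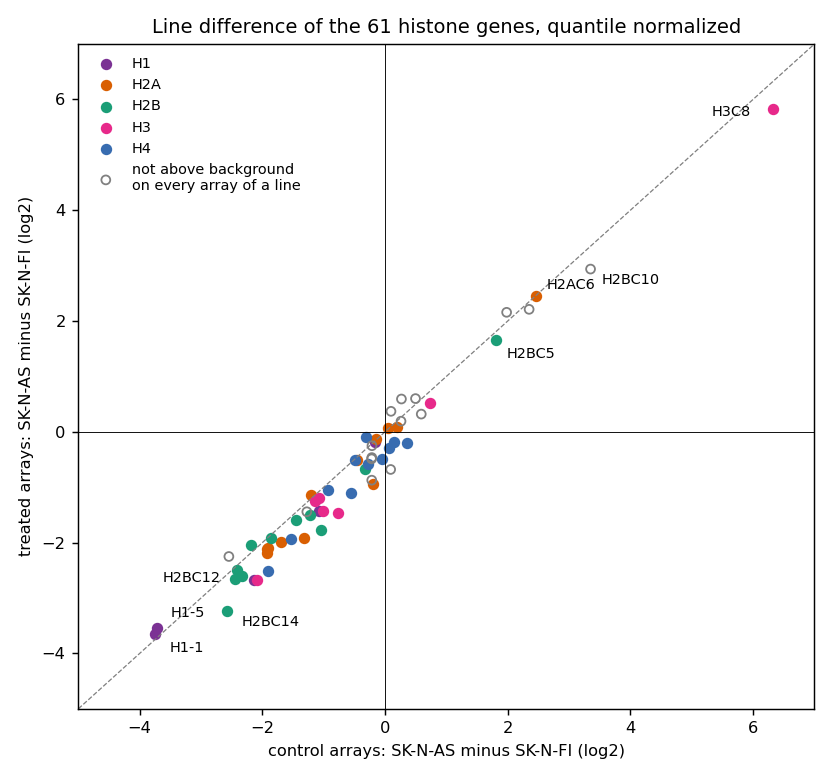
Log2 difference between the lines (SK-N-AS minus SK-N-FI, quantile normalized) of the 61 histone genes in the control arrays (horizontal axis) and the treated arrays (vertical axis), with equal values on the dashed line. Filled dots are genes above background on every array of at least 1 line. Points of genes below background in 1 line, such as H3C8 and H1-1, are fitted values whose size is not measured (H3C8 is at least 8.09-fold and 4.59-fold higher in SK-N-AS). H1-5, above background on all arrays, lies at -3.72 and -3.54.

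Adjacent H2A and H2B genes were set side by side for their line difference. The 61 genes contained 8 divergent pairs of an H2A and an H2B gene with starts 215 to 248 bases apart in GRCh38.p14. In the pair of H2BC21 and H2AC20, 236 bases apart, H2BC21 differed by -2.42 and H2AC20 by 0.20, which turned to -0.89 on the deposited scale. H2AC6, called higher in SK-N-AS, is 246 bases from H2BC4, which was above background on every SK-N-FI array and on no SK-N-AS array. The fitted difference of H2BC4 was -0.33 and not called (limma adjusted p = 0.492). On the deposited scale it was -1.65 and called higher in SK-N-FI. In the pairs of H2BC8 and H2AC8 (-1.23 and -1.33), H2BC11 and H2AC11 (-2.44 and -1.70) and H2AC14 and H2BC14 (-1.93 and -2.57), both genes were called higher in SK-N-FI. So were H2BC13 and H2AC13 (-1.04 and -1.92), although H2BC13 was not above background on any SK-N-AS array. H2BC26 (-1.28) was called higher in SK-N-FI and its neighbour H2AC25 (0.59) was not called. Neither was above background on every array of a line. H2AC1 and H2BC1 (-0.22 and 0.50), below background on all arrays, were not called. The difference within a pair was not tested.

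Other genes of the cell cycle differed between the lines in the same comparison. Over its control arrays, 22.5% of all probe sets were called for SK-N-FI and 24.1% for SK-N-AS. Of 20 S phase genes, 18 were called for SK-N-FI over the control arrays and 0 for SK-N-AS (median -1.47), and of 20 mitosis genes 19 and 0 (median -2.90). Since 13 and 11 of them were above background on every SK-N-AS array, these medians include differences against background. RRM2 differed by -4.08, MCM5 by -2.43, BUB1 by -2.66 and AURKA by -1.75. Of 22 factors of histone mRNA, 9 were called for SK-N-FI and 5 for SK-N-AS. SLBP (-0.92) and NPAT, not above background on any SK-N-AS array, were among the 9, and LSM10, a protein of the U7 particle that cuts histone mRNA, was called higher in SK-N-AS (1.23), although its deposited control mean was lower there (7.89, against 8.17 in SK-N-FI). On the deposited scale, where 47.8% and 11.5% of all probe sets were called, the counts for these factors were 18 and 0. Of 20 chaperones, 11 were called for SK-N-FI and 3 for SK-N-AS (median -0.90), and 16 and 0 on the deposited scale.

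Of 12 variants listed as replication-independent, 2 were called for SK-N-FI and 5 for SK-N-AS (median 0.44), where 22.5% and 24.1% of all probe sets were called. H2AX was lower in SK-N-AS (-2.45), while H3-3B, a gene of histone H3.3, was higher there (1.06). On the deposited scale the counts were 6 and 2, where 47.8% and 11.5% of all probe sets were called. The part of the cell cycle genes in the line difference of the histone genes was not tested.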

How the data were processed

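Each deposited value is a probe set's log2 signal on 1 of 10 arrays, with total RNA extracted by Trizol and labelled with biotin in a whole-transcript sense protocol, per the labels' protocols. RMA and version 4.0.1.36 of Transcriptome Analysis Console are named in the submitters' processing notes, with no role, and the genome build is not given in the sources used here. RMA equalises the distributions of arrays normalized together, so a change shared by most genes would not be seen. Medians equal within a line but not between lines led to quantile normalization over all arrays for comparing lines.

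Of 24351 probe sets, 2903 controls were left out and 21448 tested. All 61 member symbols matched RefSeq by gene identifier. The fits used limma 3.58.1 in R 4.3.3 (lmFit, eBayes), within each line for treatment and over all 10 arrays in 4 groups for the interaction and the lines. Benjamini-Hochberg adjustment covered every tested probe set, and calls needed an adjusted p under 0.05. The series design mentions 3 SK-N-FI replicates, of which 2 per group were analysed here. No arrays held identical values, and the number of arrays limits the precision. The fits were tested on simulated data.

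The members and gene lists were chosen with earlier results of these data known. Named genes were, per line, the 5 most negative and 5 most positive changes and the 5 highest control signals, and the 5 largest and 5 smallest line differences, all but the highest signals among genes above background on every array of the line (of at least 1 line for line differences), and 3 genes per related list. Other members named were chosen after their values were seen. SK-N-FI arrays carry numbers 1 and 2 in each arm. The deviations of same-numbered arrays had a correlation of -0.17, so the numbers were not taken as pairs. Alternatives covered scaling, eBayes settings, array weights, dim probe sets, 1 fit for all groups, blocking on array numbers, other background percentiles and leaving out each array. The crossed block and leaving out arrays 25 and 28 together were added after seeing the data.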

Additional observations from a re-analysis of the deposited data

How the results depend on the processing

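In both treatment comparisons and in the interaction, limma called 0 of 61 histone genes under every alternative that was run. The SK-N-FI median change lay between 0.00 and 0.01 under the alternatives of scaling, fit and filter, and between -0.13 and 0.19 when single arrays were left out. The SK-N-AS median lay between -0.20 and -0.13 under those alternatives, where -0.13 came from array weights, and between -0.38 and -0.02 without single arrays. With the array number as a replicate block in SK-N-FI, 0 genes were called and the median was 0.01. The crossed block likewise called 0. For SK-N-AS, whose arrays share no number, the labels state no pairing and no blocked fit was run, so whether its arrays are paired is unknown.

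The comparison of the lines depended on scaling. On the deposited values 46 genes were higher in SK-N-FI over the control arrays (median difference -1.67) and 47 over the treated arrays (-1.89). Of all probe sets 47.8% were called so in each arm, with medians of -0.61 and -0.62. With only probe sets above background on every array of at least 1 line, 3 genes were higher in SK-N-AS in each arm and the medians were -1.06 and -1.34. This filter admits genes through the line where they are high (10 only through SK-N-FI and 1 only through SK-N-AS), so these values are no support for a line difference. Centred on array medians, 32 (control) and 35 (treated) genes were called for SK-N-FI, and 9 for SK-N-AS in each arm. Leaving out single arrays gave 21 to 29 genes higher in SK-N-FI over control arrays and 23 to 33 over treated arrays. With the 99th percentile of the negative controls as background, 27 genes were above it on every SK-N-FI array and 20 on every SK-N-AS array, since that threshold is stricter.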
